A study of Mus musculus with 4 samples.

Results

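Insulin and IGF signalling in cervical MNs was followed through 10 genes, namely the ligand *Igf1*, the receptors *Igf1r* and *Insr*, the receptor substrates *Irs1* and *Irs2*, the IGF binding proteins *Igfbp2*, *Igfbp3*, *Igfbp4* and *Igfbp5*, and the receptor adaptor *Grb14*. They were chosen by symbol, and all 10 were found among the 23420 gene symbols counted and were among the 14269 that passed the filter on low counts. The MNs were made from WT mESCs of the E14 line, which are mouse embryonic stem cells, or from *Patz1* -/- (*Patz1* KO) cells that had been derived from the same line with Cas9 and a single guide RNA. Cells of both genotypes formed embryoid bodies and were then patterned with 1 µM all-trans-retinoic acid and 0.5 µM smoothened agonist (SAG), and no sort for MNs before RNA extraction is described. Each genotype had 2 RNA-seq libraries, with 14769104 and 15728158 counts in WT and 23881522 and 17402342 counts in *Patz1* KO, and values of single libraries are given in this order throughout. By the study's methods, replicates came from separate differentiations, while the labels do not say which *Patz1* KO clone each library came from.

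Insulin and the IGFs are peptide ligands that bind the receptor tyrosine kinases INSR and IGF1R. An active receptor phosphorylates the IRS docking proteins, which recruit PI3-kinase and so turn on the kinase AKT, and AKT in turn acts on mTOR, GSK3 and the FOXO transcription factors. IGF binding proteins hold IGFs outside the cell and can limit or prolong their action. The adaptors GRB10 and GRB14, of the same family as GRB7, bind the active receptors and dampen them. In the nervous system, the pathway is known for its part in the growth and survival of neurons, and IGF-1 is a classical trophic factor of MNs.

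The libraries were checked first. *Patz1* had 91.4 and 94.2 CPM (counts divided by TMM-scaled library size) in WT and 47.6 and 42.5 CPM in *Patz1* KO, so its transcripts were lower but still counted in the libraries labelled *Patz1* KO. All 13 MN markers were counted in every library, among them *Mnx1*, *Isl1* and *Chat*, and their summed level was 3844 and 3549 CPM in WT and 5416 and 4914 CPM in *Patz1* KO, with 11 of them higher. Markers of other cell types differed as well. The summed level of 13 mesenchyme markers was 226 and 246 CPM in WT and 47.8 and 40.0 CPM in *Patz1* KO, with 12 of the 12 tested lower, and that of 14 primitive and visceral endoderm markers was 74.6 and 86.9 CPM in WT and 9.89 and 10.1 CPM in *Patz1* KO, with 9 of the 11 tested lower. Of the other lists, 6 of 7 floor plate markers were lower and 1 higher (summed level 882 and 878 CPM in WT, 647 and 580.1 CPM in *Patz1* KO), 4 of 10 neural progenitor markers were higher and 3 lower, and 4 of the 6 astrocyte and oligodendrocyte markers tested were higher and 1 lower. Of the 6 endothelium and blood markers tested, 1 was higher and 3 were lower, and 2 of the 4 pluripotency markers tested were lower. Markers counted as higher or lower passed the quasi-likelihood test of edgeR (Benjamini-Hochberg adjusted p below 0.05). Of all genes tested, 24.1% were higher and 23.8% lower by this rule, or 47.9% together. The 50% of the pluripotency markers was near that share. No marker gene of any list was at 0 in every library. In bulk RNA, fewer cells of a type and less RNA per cell cannot be told apart, and the part of these shifts in the results for the IGF genes was not tested.

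Of the 10 genes, 8 differed between WT and *Patz1* KO MNs in the quasi-likelihood test of edgeR (threshold 0.05 after Benjamini-Hochberg adjustment over all genes tested), 4 of them higher and 4 lower. The same was true of 47.9% of all genes tested, 24.1% higher and 23.8% lower. The groups did not overlap in CPM for 9 of the 10 genes, against 74.2% of all genes tested. Within each class with more than 1 member, the changes went in opposite directions. *Insr* rose while *Igf1r* fell, *Irs2* rose while *Irs1* fell, and *Igfbp2* and *Igfbp5* rose while *Igfbp3* and *Igfbp4* fell. The median log2 fold change (*Patz1* KO over WT) was 0.13, beside a median of -0.0014 over all genes tested.

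**Figure D1:**
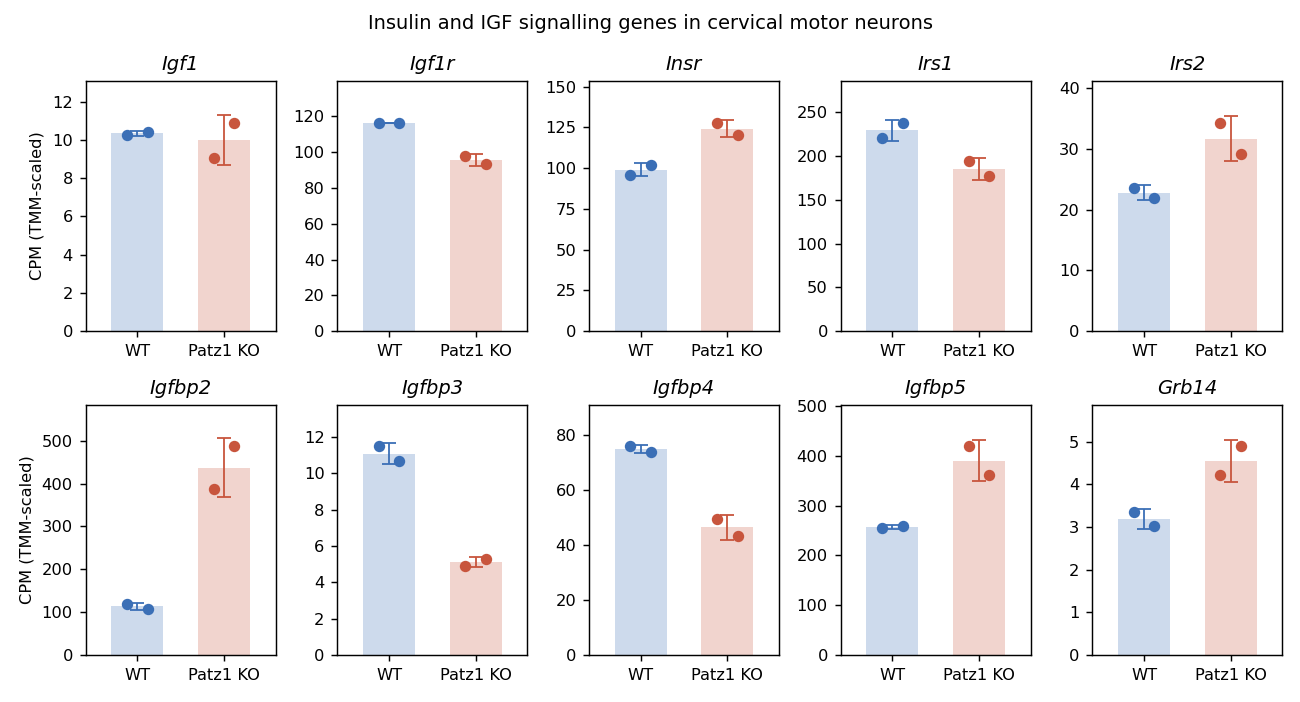
Level of each of the 10 genes in CPM (TMM-scaled) in WT and *Patz1* KO cervical MNs. Points are single libraries, bars are means and error bars are the SD (n = 2 per genotype), and each panel has its own axis from 0. Only for *Igf1* do the points of the genotypes overlap, and *Igfbp2* has the widest gap, from at most 119 CPM in WT to at least 388 CPM in *Patz1* KO.

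**Figure D2:**
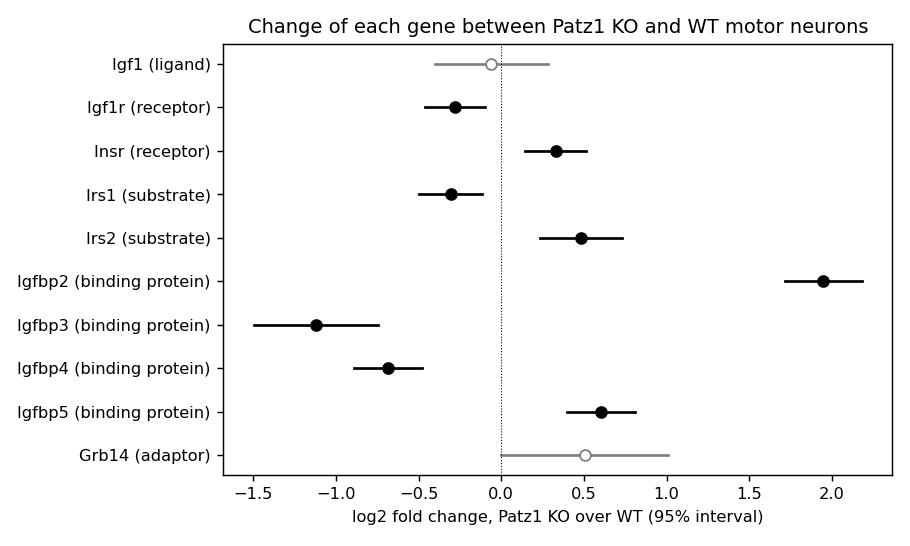
Log2 fold change of each gene, *Patz1* KO over WT, with its unadjusted 95% interval from edgeR's quasi-likelihood fit. Filled points passed an adjusted p of 0.05 and open points did not. *Igfbp2* lies farthest to the right at 1.95 and *Igfbp3* farthest to the left at -1.12.

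The binding proteins moved most, and *Igfbp2* led them. For *Igfbp2*, whose product is a secreted carrier abundant in the developing nervous system, the WT libraries held 1770 and 1715 counts and those of *Patz1* KO 9412 and 8168. Scaled for depth, this was 119 and 108 CPM in WT against 388 and 487 CPM in *Patz1* KO. Both *Patz1* KO libraries lay far above both WT libraries even though they differed from each other by 1.25-fold. The log2 fold change was 1.95 (standard error, SE, 0.111, Benjamini-Hochberg adjusted p = 2.62e-10 in edgeR), a rise of 3.86-fold with a 95% interval from 3.28-fold to 4.54-fold. Of all genes tested, 96.0% had a smaller absolute log2 fold change. *Igfbp2* was also the only 1 of the 10 genes that passed when a change of more than 1 on the log2 scale was required.

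*Igfbp5* encodes a binding protein with high affinity for IGFs that also binds the extracellular matrix. It was at 254 and 259 CPM in WT and at 419 and 361 CPM in *Patz1* KO. The genotypes were thus well apart and the WT libraries nearly equal. On the log2 scale, the difference was 0.60 (SE 0.0977, Benjamini-Hochberg adjusted p = 6.61e-05 in edgeR), or 1.52-fold. *Igfbp5* and *Igfbp2* are neighbours. On chromosome 1 of GRCm38 (the assembly of mm10), *Igfbp2* runs on the plus strand from 72824503 to 72852474 and *Igfbp5* on the minus strand from 72857932 to 72874884, so that their 3′ ends face each other with 5457 bases between them. Their annotated exons overlap those of no other gene.

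The other binding proteins went the opposite way. *Igfbp3*, whose product carries most IGF in blood, was counted 171 and 170 times in WT and 119 and 89 times in *Patz1* KO, or 11.5 and 10.7 CPM against 4.91 and 5.30 CPM. Every *Patz1* KO value was below every WT value, and the replicates of each genotype were within 1.08-fold of each other. *Igfbp3* fell by 1.12 on the log2 scale (SE 0.178, Benjamini-Hochberg adjusted p = 5.54e-05 in edgeR), which made it 2.18-fold lower. *Igfbp4*, an inhibitory binding protein that the protease PAPP-A cleaves, was at 75.9 and 73.9 CPM in WT and at 49.5 and 43.3 CPM in *Patz1* KO. This fall, of 0.69 on the log2 scale (SE 0.0977, Benjamini-Hochberg adjusted p = 1.7e-05 in edgeR), was 1.61-fold and larger than the spread between replicates. *Igfbp3* lies at 7206086 to 7213923 and *Igfbp4* at 99041244 to 99054392 of chromosome 11. The direction of all 4 binding proteins and their calls held when any single library was left out.

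The region just before the transcription start is given for these 4 genes because they are the members that changed most and moved in both directions. The sequences are from RefSeq on GRCm38, cover the 250 bases before the annotated start that lies nearest to the gene's start in GENCODE, and are read 5′ to 3′ on the strand of the gene. Capitals mark GGGAGGG or its reverse complement CCCTCCC, a G-rich string of the kind that PATZ1 is known to bind. The windows are chr1:72824230-72824479 (plus strand) for *Igfbp2*, chr1:72874866-72875115 (minus strand) for *Igfbp5*, chr11:7213924-7214173 (minus strand) for *Igfbp3* and chr11:99040994-99041243 (plus strand) for *Igfbp4*.
Igfbp2: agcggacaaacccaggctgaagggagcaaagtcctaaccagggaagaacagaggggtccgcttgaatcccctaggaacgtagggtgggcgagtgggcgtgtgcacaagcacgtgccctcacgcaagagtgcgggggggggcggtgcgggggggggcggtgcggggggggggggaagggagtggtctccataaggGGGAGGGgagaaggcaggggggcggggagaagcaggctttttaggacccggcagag
Igfbp5: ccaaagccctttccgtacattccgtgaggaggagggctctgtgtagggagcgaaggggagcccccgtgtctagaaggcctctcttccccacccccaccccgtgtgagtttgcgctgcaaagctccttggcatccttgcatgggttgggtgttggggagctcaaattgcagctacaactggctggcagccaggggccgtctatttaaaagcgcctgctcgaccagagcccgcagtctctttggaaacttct
Igfbp3: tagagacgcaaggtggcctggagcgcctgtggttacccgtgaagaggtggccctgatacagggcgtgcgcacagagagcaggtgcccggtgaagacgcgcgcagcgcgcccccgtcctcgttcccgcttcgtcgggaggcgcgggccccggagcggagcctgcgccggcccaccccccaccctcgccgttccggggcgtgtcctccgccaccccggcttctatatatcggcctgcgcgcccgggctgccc
Igfbp4: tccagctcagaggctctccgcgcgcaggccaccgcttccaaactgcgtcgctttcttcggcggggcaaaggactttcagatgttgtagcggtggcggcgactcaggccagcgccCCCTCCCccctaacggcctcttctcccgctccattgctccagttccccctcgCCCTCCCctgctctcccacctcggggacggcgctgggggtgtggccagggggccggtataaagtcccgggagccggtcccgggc

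The G-rich string occurred once in the window of *Igfbp2*, starting 56 bases before the transcription start, and at 2 places in that of *Igfbp4*, but not in those of *Igfbp5* and *Igfbp3*. Among these 4 genes, it was thus present before 1 that rose and before 1 that fell. Start sites were listed for 9 of the 10 genes, *Insr* being the exception, and the string was found before 4 of them. The others were *Irs2*, which rose (log2 fold change 0.48), and *Grb14*, which did not pass the test (log2 fold change 0.50). Of all 32851 windows of the same length, 19.7% held it. The FOXO motif GTAAACA, searched as well with its reverse complement TGTTTAC because *Irs2* and *Insr* are known FOXO targets, was in none of the windows of these 9 genes and in 3.2% of all windows. GC content was between 52.8% and 77.6% in these windows, with a median of 52.4% over all windows. These are matches of letters and not measured binding.

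Set against each other within a library, the binding proteins shifted in makeup as well as in amount. To compare levels between genes, CPM were divided by the length of all annotated exons in kb. Summed over *Igfbp2* to *Igfbp5*, the level was 127 and 122 CPM per kb in WT and 293 and 335 CPM per kb in *Patz1* KO. *Igfbp2* supplied 50.5% and 48.0% of that sum in WT, against 71.8% and 78.6% in *Patz1* KO. *Igfbp4* supplied 13.5% and 13.7% in WT but 3.83% and 2.92% in *Patz1* KO, and the share of *Igfbp3* was 2.88% and 2.81% in WT and 0.536% and 0.506% in *Patz1* KO. The share of *Igfbp5* was 33.2% and 35.5% in WT and 23.8% and 17.9% in *Patz1* KO, so it was smaller in *Patz1* KO although its level had risen. These shares do not depend on the scaling of the libraries, and none of them overlapped between the genotypes.

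The receptors showed a smaller shift in opposite directions. Of all genes tested, 43.4% had a smaller absolute log2 fold change than *Igf1r* and 48.9% a smaller one than *Insr*. Both changes were thus below the median absolute log2 fold change of all genes tested, 0.34. *Igf1r*, the main receptor for IGF-1 and IGF-2, was counted 1730 and 1852 times in WT and 2375 and 1567 times in *Patz1* KO, or 116.1 and 116.4 CPM against 97.9 and 93.4 CPM. It was lower in *Patz1* KO by 0.28 on the log2 scale, as the log2 fold change was -0.28 (SE 0.0857, Benjamini-Hochberg adjusted p = 0.0119 in edgeR). *Insr*, the insulin receptor, was counted 1433 and 1619 times in WT and 3103 and 2021 times in *Patz1* KO, which is 96.1 and 101.8 CPM against 128 and 120.4 CPM. The log2 fold change of *Insr* was 0.33 (SE 0.0869, Benjamini-Hochberg adjusted p = 0.00466 in edgeR), a rise of 25.5%. For each receptor the groups were apart by more than the replicates of either genotype. The number of *Igf1r* counts per *Insr* count, which needs no scaling of libraries, was 1.21 and 1.14 in WT and 0.765 and 0.775 in *Patz1* KO. Per kb of exon, the *Igf1r* to *Insr* ratio was 0.988 and 0.936 in WT and 0.627 and 0.635 in *Patz1* KO.

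Leaving out WT replicate 1 or 2 gave *Igf1r* an adjusted p of 0.120 or 0.145 and *Insr* one of 0.121 or 0.0386 (edgeR, Benjamini-Hochberg), where the lone WT library is assumed to vary like the *Patz1* KO libraries. The log2 fold changes with any single library left out stayed between -0.31 and -0.24 for *Igf1r* and between 0.29 and 0.38 for *Insr*. *Igf1r* lies on chromosome 7 (67952827 to 68233668) and *Insr* on chromosome 8 (3122061 to 3279617), and neither has exons in common with another gene.

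The docking proteins IRS1 and IRS2, which pass the signal of both receptors on to PI3-kinase, were the second class with opposite directions. Of all genes tested, 46.6% had a smaller absolute log2 fold change than *Irs1* and 63.3% a smaller one than *Irs2*. *Irs1* was counted 3289 and 3783 times in WT and 4703 and 2963 times in *Patz1* KO, or 221 and 238 CPM against 194 and 177 CPM. Its log2 fold change was -0.31 (SE 0.0895, Benjamini-Hochberg adjusted p = 0.00897 in edgeR). The groups were separate, but without WT replicate 2 the call was lost at a log2 fold change of -0.25 (Benjamini-Hochberg adjusted p = 0.213 in edgeR). *Irs2* was counted 352 and 348 times in WT and 832 and 488 times in *Patz1* KO, or 23.6 and 21.9 CPM against 34.3 and 29.1 CPM. It rose by 0.48 on the log2 scale (SE 0.117, Benjamini-Hochberg adjusted p = 0.00244 in edgeR), and this call held without any single library, with adjusted p values of at most 0.0387.

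*Irs1* remained the more abundant substrate, but its excess was smaller in *Patz1* KO. Per kb of exon, the *Irs1* to *Irs2* ratio was 6.46 and 7.52 in WT and at most 4.2 in *Patz1* KO. There were 9.34 and 10.9 *Irs1* counts per *Irs2* count in WT, against 5.65 and 6.07 in *Patz1* KO. The genes lie on chromosome 1 (*Irs1*, 82233101 to 82291416) and chromosome 8 (*Irs2*, 10984681 to 11008458). The exons of *Irs1* overlap the antisense gene *Gm9747* and those of *Irs2* the antisense gene *9530052E02Rik*, which had between 2 and 5 counts in each library. The strand setting of the counting is not given in the sources used here, so reads of a gene and of its antisense partner may not have been kept apart.

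**Figure D3:**
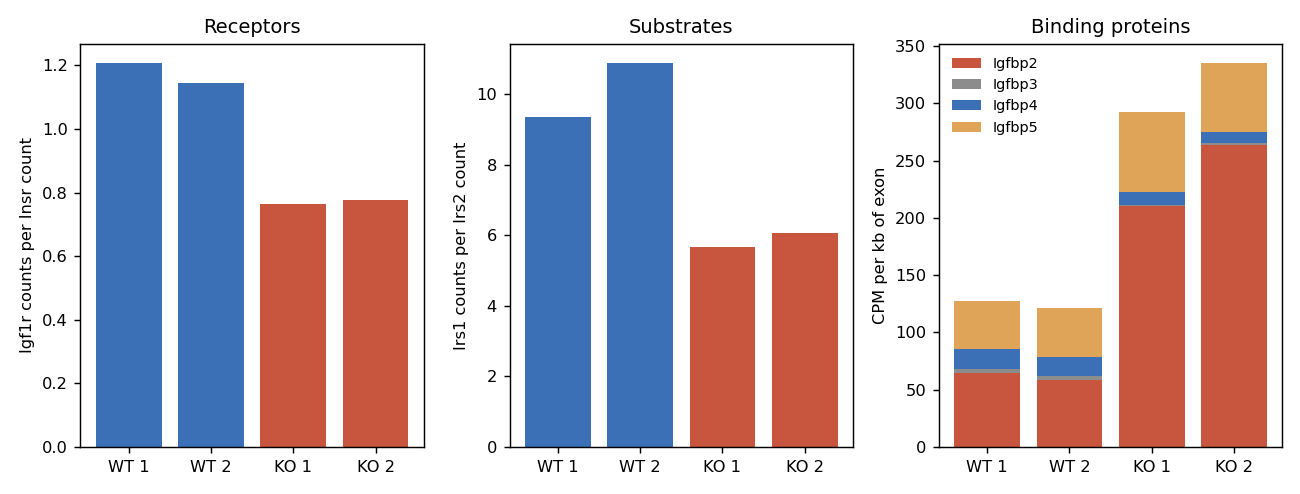
Makeup of 3 classes in each library, with WT in blue and *Patz1* KO (KO) in red in the first 2 panels. The first panel shows *Igf1r* counts per *Insr* count, the second *Irs1* counts per *Irs2* count, and the third the stacked levels of the 4 binding proteins in CPM per kb of exon. Both ratios are lower in each *Patz1* KO library than in each WT library, and most of the taller stacks in *Patz1* KO is *Igfbp2*.

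The ligand and the adaptor did not pass the test. *Igf1* was counted 153 and 166 times in WT and 220 and 183 times in *Patz1* KO, or 10.3 and 10.4 CPM against 9.07 and 10.9 CPM, so the WT values lay between those of *Patz1* KO. Its log2 fold change of -0.06 had a 95% interval from -0.40 to 0.28 (Benjamini-Hochberg adjusted p = 0.781 in edgeR). The interval gives the changes compatible with 2 libraries per genotype at this depth and replicate spread, and none of them is excluded. *Grb14*, which encodes an adaptor that blocks the kinase of the active insulin receptor, was the gene with the fewest counts, 50 and 48 in WT and 102 and 82 in *Patz1* KO. This was 3.35 and 3.02 CPM against 4.21 and 4.89 CPM, without overlap between the genotypes. The log2 fold change of 0.50 (SE 0.239) had a 95% interval from 0.00075 to 1.01 and, in edgeR, an adjusted p of 0.0912 (Benjamini-Hochberg). Without *Patz1* KO replicate 1 *Grb14* passed narrowly, at 0.0497. *Igf1* is found on chromosome 10 (87858265 to 87937042) and *Grb14* on chromosome 2 (64912476 to 65024987).

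In level per kb of exon, the order of the 10 genes was the same in both genotypes. *Igfbp2* came first with 64.3 and 58.4 CPM per kb in WT and 210.1 and 264 CPM per kb in *Patz1* KO. *Igfbp5*, *Irs1* and *Igfbp4* followed with 42.7 ± 0.641, 25.1 ± 1.32 and 17.0 ± 0.325 CPM per kb in WT (SD, n = 2 each, as in the next sentences). *Insr* and *Igf1r* were next and close to each other in WT, at 7.20 ± 0.289 and 6.92 ± 0.0140 CPM per kb, and further apart in *Patz1* KO, at 9.03 ± 0.386 and 5.70 ± 0.191 CPM per kb. *Irs2* and *Igfbp3* could not be ordered in WT, where their libraries overlapped at 3.60 ± 0.195 and 3.54 ± 0.178 CPM per kb, but did not overlap in *Patz1* KO (5.01 ± 0.584 and 1.63 ± 0.0898 CPM per kb). *Igf1* and *Grb14* were at the bottom in both genotypes, with about 1.04 and 0.443 CPM per kb in WT. Apart from *Irs2* and *Igfbp3* in WT, no neighbours in this order overlapped between libraries.

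The rest of the pathway was followed with 55 further genes, of which 46 could be tested. Here 8 were higher and 10 lower in *Patz1* KO in the same edgeR test at the same threshold, which is 39.1% of those tested, below the 47.9% among all genes. Their median log2 fold change was 0.00077, with a range from -3.01 to 1.45.

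Among the ligands, *Igf2*, the main IGF of the embryo, was at 370.2 and 377 CPM in WT and at 149 and 175 CPM in *Patz1* KO, which was 2.31-fold lower (log2 fold change -1.21, SE 0.0974, Benjamini-Hochberg adjusted p = 2.38e-08 in edgeR). Its exons overlap *Gm49394* and the antisense gene *Igf2os*. *Igf2r*, which clears IGF-2 by carrying it to the lysosome, was at 188 and 201 CPM in WT and at 157 and 134 CPM in *Patz1* KO and fell by 0.42 on the log2 scale. No count of the insulin genes *Ins1* and *Ins2* was seen in any library, which allows at most 0.124 to 0.201 CPM per library by counting error alone. The carrier gene *Igfals*, the receptor gene *Insrr*, the binding protein genes *Igfbp1*, *Igfbp6* and *Igfbp7* and the substrate genes *Irs3* and *Irs4* had too few counts to be tested, with at most 14 in any library.

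Of the adaptors, *Grb10*, which restrains both receptors, had the largest change of the pathway, from 365 and 362 CPM in WT to 47.9 and 42.1 CPM in *Patz1* KO (log2 fold change -3.01). *Shc1*, listed here with the substrates, links receptors to the RAS pathway. Its level was 30.1 and 31.2 CPM in WT and 16.5 and 19.7 CPM in *Patz1* KO (log2 fold change -0.77). *Socs2*, a suppressor of growth hormone and cytokine signalling, was counted 317 and 319 times in WT and 1126 and 830 times in *Patz1* KO, with 20.7 ± 0.861 CPM in WT and 47.9 ± 2.15 CPM in the mutant (SD, n = 2 each), and its log2 fold change was 1.21. *Ptpn1*, a phosphatase of the insulin receptor, was at 93.3 and 91.2 CPM in WT and at 129.8 and 119 CPM in *Patz1* KO (log2 fold change 0.43). The product of *Stc1* inhibits the protease PAPP-A, which cuts IGFBP4. *Stc1* was counted only 36 and 47 times in WT but 149 and 147 times in *Patz1* KO (log2 fold change 1.45). Its exons overlap the antisense gene *Gm41192*. All of these passed the same edgeR test, with adjusted p values (Benjamini-Hochberg) between 1.16e-12 and 0.00057. Of the 6 further genes listed as adaptors, 3 were lower and 0 higher. This was 50% of them, near the 47.9% of all genes tested (24.1% higher, 23.8% lower). Beside *Grb10*, those lower were *Grb7* (23 and 14 counts in WT, 4 and 4 in *Patz1* KO, log2 fold change -2.58) and *Sos1* (-0.25). Of the protease genes *Pappa* and *Pappa2*, *Pappa2* was lower (44 and 50 counts in WT, 25 and 15 in *Patz1* KO, log2 fold change -1.64). *Pappa*, which encodes PAPP-A, did not pass the test (log2 fold change -0.33).

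**Figure D4:**
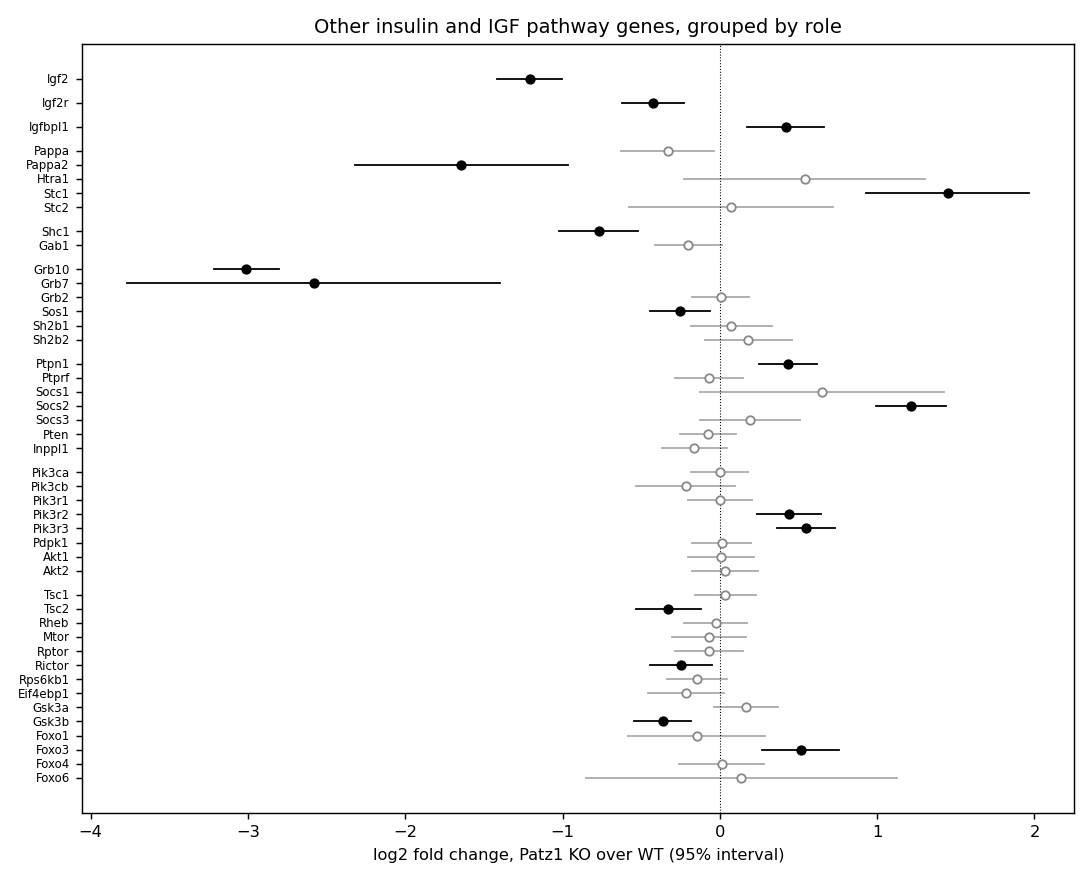
Log2 fold change, *Patz1* KO over WT, of other pathway genes that could be tested, with unadjusted 95% intervals and with gaps between functional classes. Filled points passed an adjusted p of 0.05 and open points did not. *Grb10* lies farthest to the left at -3.01 and *Stc1* farthest to the right at 1.45, while *Pik3ca*, *Pik3r1*, *Akt1* and *Akt2* lie near 0.

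Of the PI3-kinase genes, the regulatory subunits *Pik3r3* (214 ± 5.25 to 314 ± 4.45 CPM, SD, n = 2 each, log2 fold change 0.55) and *Pik3r2* (91.4 ± 2.75 to 123.8 ± 16.8 CPM, log2 fold change 0.44) were higher in *Patz1* KO. For *Akt1*, *Akt2*, *Pik3ca* and *Pik3r1*, the log2 fold changes were between 0.00030 and 0.032, and their 95% intervals went from -0.20 at the lowest to 0.24 at the highest. These genes did not pass the test. Neither did *Pdpk1* (log2 fold change 0.011) nor *Pik3cb* (log2 fold change -0.22, 95% interval from -0.53 to 0.098). Among 14 genes of mTOR, GSK3 and FOXO, 1 was higher and 3 were lower, or 28.6% against 47.9% of all genes tested. *Foxo3*, a transcription factor that AKT keeps out of the nucleus, was at 19.2 ± 1.18 CPM in WT and 27.4 ± 1.28 CPM in *Patz1* KO (SD, n = 2 each), without overlap (log2 fold change 0.51, Benjamini-Hochberg adjusted p = 0.00146 in edgeR). Those lower were *Gsk3b*, *Tsc2* and *Rictor*, with log2 fold changes of -0.36, -0.33 and -0.25. The exons of *Pik3r2*, *Pik3r3* and *Tsc2* overlap other genes, those of *Tsc2* the gene *Pkd1* on the opposite strand.

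Transcripts of 14 genes that are commonly described as FOXO targets went both ways, with 5 higher and 3 lower among the 13 tested (61.5%, against 47.9% of all genes tested) and a median log2 fold change of 0.089. *Ccng2*, an atypical cyclin of resting cells, was at 75.0 and 81.9 CPM in WT and at 128 and 142 CPM in *Patz1* KO (log2 fold change 0.78). *Cdkn1b*, the cell cycle inhibitor p27, was at 104 and 116 CPM in WT and at 157 and 190.4 CPM in *Patz1* KO (log2 fold change 0.66), and *Fbxo32*, a ubiquitin ligase of muscle wasting whose exons overlap *Gm15943*, fell from 20.9 and 22.1 CPM to 12.5 and 12.8 CPM. These changes, with edgeR adjusted p values from 2.09e-06 to 9.1e-05 (Benjamini-Hochberg), were larger than the spread between replicates. Without WT replicate 1, 5 of the FOXO target genes were called in place of 8.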

How the data were processed

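RNA-seq of cervical MNs was analysed from 2 WT and 2 *Patz1* KO libraries. Sample titles read ESC but source and cell type read MN, and the latter was used. The libraries were stranded and depleted of ribosomal RNA. The authors mapped reads to mm10 (the submitters' processing notes name TopHat2 2.1.1, Bowtie2 2.3.1 and featureCounts 1.6.2) and deposited raw counts per gene symbol, 1 file per library, without normalization. Annotation and strand setting are not given in the sources used here.

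Counts were scaled with TMM, filtered with filterByExpr (minimum count 10) and tested with edgeR 4.0.16 (limma 3.58.1, R 4.3.3), with a quasi-likelihood test of genotype and Benjamini-Hochberg adjustment over 14269 genes. SEs were derived from the F statistic. Simulated counts with known changes were used to check the test, and DESeq2 1.42.0 was an alternative. Exon lengths and overlaps came from GENCODE M21 (GRCm38), which matched 23055 of 23420 symbols. The counting may have used another annotation, which would alter levels per kb.

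The members and lists were chosen with earlier results of these data known. The text names all members, *Patz1*, *Grb10*, *Igf2*, *Igf2r*, the 10 called pathway genes with the largest change at a mean of at least 50 counts, and the 3 FOXO targets with the smallest p. Other genes were named after their values were seen. Ratios within a library are given as descriptions, with no test. Detection limits (3 counts per library) cover counting error only. 1 gene of the pathway list is counted in the totals but not reported here.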

Additional observations from a re-analysis of the deposited data

How the results depend on the processing

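The number of the 10 genes called stayed at 8 under 3 other scalings, 2 other filters on low counts, DESeq2's Wald test, robust estimation and thinning of all libraries to the smallest, which was chosen after seeing the data. With a minimum absolute log2 fold change of 1, it was 1, *Igfbp2*, with 2 of the other pathway genes, 1 of the FOXO target genes and 718 of all genes. Leaving out each library in turn gave 6 to 9 of the 10 genes, 12 to 24 pathway genes, 5 to 8 FOXO target genes and 4521 to 7816 of all genes. The count over all genes was lowest without WT replicate 2, and that over FOXO target genes without WT replicate 1. *Igf1*, which was not called, ranged from -0.18 to 0.079 (log2 fold change) when each library was left out, changing sign without *Patz1* KO replicate 1, and changed sign after thinning too (0.0027). The replicate number as a block left 8 of the 10 genes called, with 19 pathway genes, 8 FOXO target genes and 7363 of all genes. The numbers were not taken as pairs, since the deviations of same-numbered libraries from their group means correlated by 0.061 across 11917 genes and the labels name no shared batch. Depth limits *Grb14* and the pathway genes with under 15 counts most.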
